A study of Homo sapiens with 18 samples.

Results

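The genes described here are 40 components and targets of the Wnt pathway, listed by name, and every probe set (a group of short probes on the array that reads 1 transcript) that the platform annotation gives to 1 of them alone was taken. Of the 40 genes, 36 had such a probe set, with 109 probe sets in all, out of 19775 genes named in this way on the whole array. WNT3 and FZD8 had only probe sets that are annotated to several symbols, 3 for each gene, and TCF7 and PORCN had no probe set that could be named here, so no values are given for these genes. The cells were SH-SY5Y, a human neuroblastoma line. All groups shared 7 days of differentiation in 10 μM retinoic acid and then 24 h in medium without it. The cells were then exposed for 30 min to cocaine at 0, 1 or 5 μM and harvested 6 or 24 h later. The groups are therefore untreated, 1 μM and 5 μM cells at each time, with 3 arrays per group and 18 in all, and each array held RNA pooled from 3 dishes. All values are log2 signals, and a gene was called expressed at a time when a probe set of it had a mean above log2(40), which is 5.32, over the 9 arrays of that time.

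Wnt proteins are secreted ligands that bind Frizzled receptors. In the canonical branch, Frizzled acts with LRP5 or LRP6 and with Dishevelled to switch off a destruction complex of AXIN, APC, GSK3 and casein kinase 1, so that beta-catenin enters the nucleus and works with TCF/LEF proteins, which are otherwise held in repression by the Groucho/TLE proteins. Branches that do not use beta-catenin run through receptors such as ROR1, ROR2 and RYK and guide cell migration and axon outgrowth, and neuroblastoma arises from neural crest, a tissue whose formation depends on Wnt signals. AXIN2, DKK1, NKD1, LEF1, ZNRF3 and RNF43 are known feedback targets, which beta-catenin switches on and most of which damp the pathway.

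The promoters of the members on which the results below turn are shown because TCF7L1 is a DNA-binding protein of the TCF/LEF family and ROR1 and ROR2 are related receptors, and DKK1 is shown as a feedback target. Each sequence runs from 250 bases before the start of the gene to 50 after it (RefSeq, GRCh38.p14). The windows lie at chr2:85133142-85133441, plus strand for TCF7L1, at chr1:63773767-63774066, plus strand for ROR1, at chr9:91950179-91950478, minus strand for ROR2 and at chr10:52314031-52314330, plus strand for DKK1. Capitals mark CTTTGA, the core of the sequence that TCF/LEF proteins bind, on either strand (TCAAAG on the other).
TCF7L1: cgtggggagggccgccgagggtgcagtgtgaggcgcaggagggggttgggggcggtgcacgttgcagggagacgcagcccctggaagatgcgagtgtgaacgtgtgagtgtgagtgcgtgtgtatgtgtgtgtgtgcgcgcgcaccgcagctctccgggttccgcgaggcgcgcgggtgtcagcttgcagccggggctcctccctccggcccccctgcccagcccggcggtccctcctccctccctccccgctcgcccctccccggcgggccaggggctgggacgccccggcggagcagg
ROR1: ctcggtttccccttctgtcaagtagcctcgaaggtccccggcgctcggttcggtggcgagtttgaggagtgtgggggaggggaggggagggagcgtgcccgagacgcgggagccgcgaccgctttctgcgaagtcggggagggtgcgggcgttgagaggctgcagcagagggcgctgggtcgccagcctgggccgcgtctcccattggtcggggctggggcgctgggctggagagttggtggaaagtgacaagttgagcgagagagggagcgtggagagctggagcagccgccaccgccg
ROR2: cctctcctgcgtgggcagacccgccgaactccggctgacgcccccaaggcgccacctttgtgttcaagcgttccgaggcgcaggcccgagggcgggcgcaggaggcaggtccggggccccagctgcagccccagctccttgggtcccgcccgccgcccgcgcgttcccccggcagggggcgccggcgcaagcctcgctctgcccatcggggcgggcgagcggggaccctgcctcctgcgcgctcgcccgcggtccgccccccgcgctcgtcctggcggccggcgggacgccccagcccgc
DKK1: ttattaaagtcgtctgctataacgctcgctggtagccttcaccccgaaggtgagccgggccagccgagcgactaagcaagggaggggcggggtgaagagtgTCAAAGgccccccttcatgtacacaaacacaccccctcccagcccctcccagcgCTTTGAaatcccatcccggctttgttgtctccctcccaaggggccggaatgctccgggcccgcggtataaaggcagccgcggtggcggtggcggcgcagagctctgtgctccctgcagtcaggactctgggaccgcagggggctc
The letters were present on both strands in the DKK1 window and were not in the TCF7L1, ROR1 and ROR2 windows. They were found in 5 of 40 windows of 29 listed genes (12.5%), namely windows of CSNK1A1, TLE4, DKK1 and PORCN, and in 12.9% of all 35116 windows. A match of letters is a description of the sequence and not a binding site.

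The labelled cell type was checked against marker genes. Of 8 markers of noradrenergic neuroblastoma cells, 6 were above the threshold at both times, among them GATA3, ISL1 and PHOX2A. TH, the rate-limiting enzyme of dopamine synthesis, was below it, with means of 3.50 at 6 h and 3.87 at 24 h. This is the RNA signal of its brightest probe set, while the study assessed TH as protein by western blot. All 10 neuronal markers and 6 of 8 markers of substrate-adherent, mesenchymal neuroblastoma cells were above the threshold. Among the glial markers GFAP, S100B, MBP and AQP4 were below it and SOX10 was at 5.48 and 5.89. At 6 h the mean over the 7 named noradrenergic markers was 9.93 to 9.96 on the untreated arrays, 9.85 to 9.88 at 1 μM and 9.77 to 9.86 at 5 μM, and the part of this shift in the results was not tested. The mesenchymal list overlapped between the doses at 6 h, with 8.24 to 8.58 on untreated arrays, 8.28 to 8.55 at 1 μM and 8.42 to 8.56 at 5 μM. In bulk RNA, fewer cells of a type and less RNA per cell cannot be told apart. Some untreated arrays stood apart from the rest. CYP26A1, which encodes an enzyme that degrades retinoic acid and is induced by it, had 5.01 on untreated array 1 at 6 h, 10.69 on array 2 and 10.99 on array 3, against 4.95 to 5.61 on the 6 treated arrays of that time. At 24 h the untreated arrays had 5.40, 6.04 and 9.55. The difference between the 3′ and the 5′ probe sets of ACTB, a sign of RNA quality, was 0.55, 1.12 and 0.89 on the untreated arrays of 6 h, 0.72, 0.64 and 0.60 at 1 μM and 0.49, 0.52 and 0.54 at 5 μM, so the 5 μM arrays all lay below the untreated ones. At 24 h it was 0.61, 0.49 and 0.65 on the untreated arrays, 0.46, 0.42 and 0.66 at 1 μM and 0.93, 0.69 and 1.03 at 5 μM, so there the 5 μM arrays all lay above the others. For GAPDH the same difference at 6 h was 0.25, 0.21 and 0.23 on the untreated arrays, 0.15, 0.17 and 0.17 at 1 μM and 0.20, 0.24 and 0.19 at 5 μM. At 24 h it was 0.19, 0.20 and 0.18 on the untreated arrays, 0.17, 0.14 and 0.19 at 1 μM and 0.22, 0.18 and 0.22 at 5 μM. For GAPDH the untreated and 5 μM arrays thus overlapped at both times. The part of these measures in the results was not tested. The differences between 5 and 0 μM at 6 h are given below also without untreated arrays 2 and 3, which leaves 1 untreated array. Over the 73 expressed Wnt probe sets of that time, the estimate then moved by more than 0.1 in 51 and turned its direction in 29, from 15 genes. These moves were not counted over all probe sets, so they do not set the Wnt genes apart. The untreated array left has replicate number 1, and the part of the replicate number in these moves was not tested.

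The first question was which Wnt genes these cells expressed. Of the 36 genes with values, 32 were expressed at 6 h and 34 at 24 h, with 73 and 82 probe sets. All 12 named receptors and co-receptors, all 6 genes of the destruction complex and all 3 Dishevelled genes were expressed at both times. CTNNB1 (beta-catenin), TCF7L1, TCF7L2, TLE1, TLE3 and TLE4 were expressed at both times. WNT11, a ligand of the branch without beta-catenin, and RNF43, a ubiquitin ligase that removes Frizzled from the surface, were below the threshold at both, with array values of 3.55 to 4.45 and 3.91 to 4.24. NKD1, an inhibitor of Dishevelled, and LEF1, a DNA-binding partner of beta-catenin, were above the threshold at 24 h but not at 6 h. The arrays of the times were normalized separately, so levels are not compared between them.

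The second question was whether cocaine changed these genes within 6 h. Between 5 and 0 μM, 1 of 73 Wnt probe sets changed, TCF7L1, which rose, against 2.98% of all 22455 probe sets tested (670). Over the 73 probe sets the median difference was -0.0040, against -0.016 over all probe sets, and 36 of the 73 estimates were above 0. The unadjusted p was under 0.05 for 11 probe sets (15.1%), against 17.2% of all. The 3 arrays of 5 μM all lay above those of untreated cells for 4 Wnt probe sets, against 8.09% of all probe sets, and all below them for 5, against 13.1%. Arrays that share a replicate number resembled each other across doses, and 20 of 73 passed when this number was a block in the fit. Of these, 8 probe sets of 8 genes were higher at 5 μM, against 7.75% of all probe sets, and 12 probe sets of 7 genes were lower, against 10.9%. GSK3B had a probe set in each direction. With untreated arrays 2 and 3 left out, the count was 0 of 73, against 0% of all probe sets, and with the block as well it was 2, FZD3 and ROR2, both lower, against 2.6% of all. Of the 4 FZD3 probe sets, 219683_at went from -0.069 to -0.47 without untreated arrays 2 and 3. Its untreated arrays 1, 2 and 3 were at 8.53, 7.90 and 7.93, and its 5 μM arrays at 8.06, 8.16 and 7.93. The other FZD3 probe sets had -0.15, 0.011 and 0.043 without those arrays. The fit without untreated array 1 gave 9, against 10.8% of all, and leaving out untreated array 2 or 3, 1 μM array 2 or any 1 of the 5 μM arrays gave 0, in fits where 0 to 233 of all probe sets passed.

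**Figure D1:**
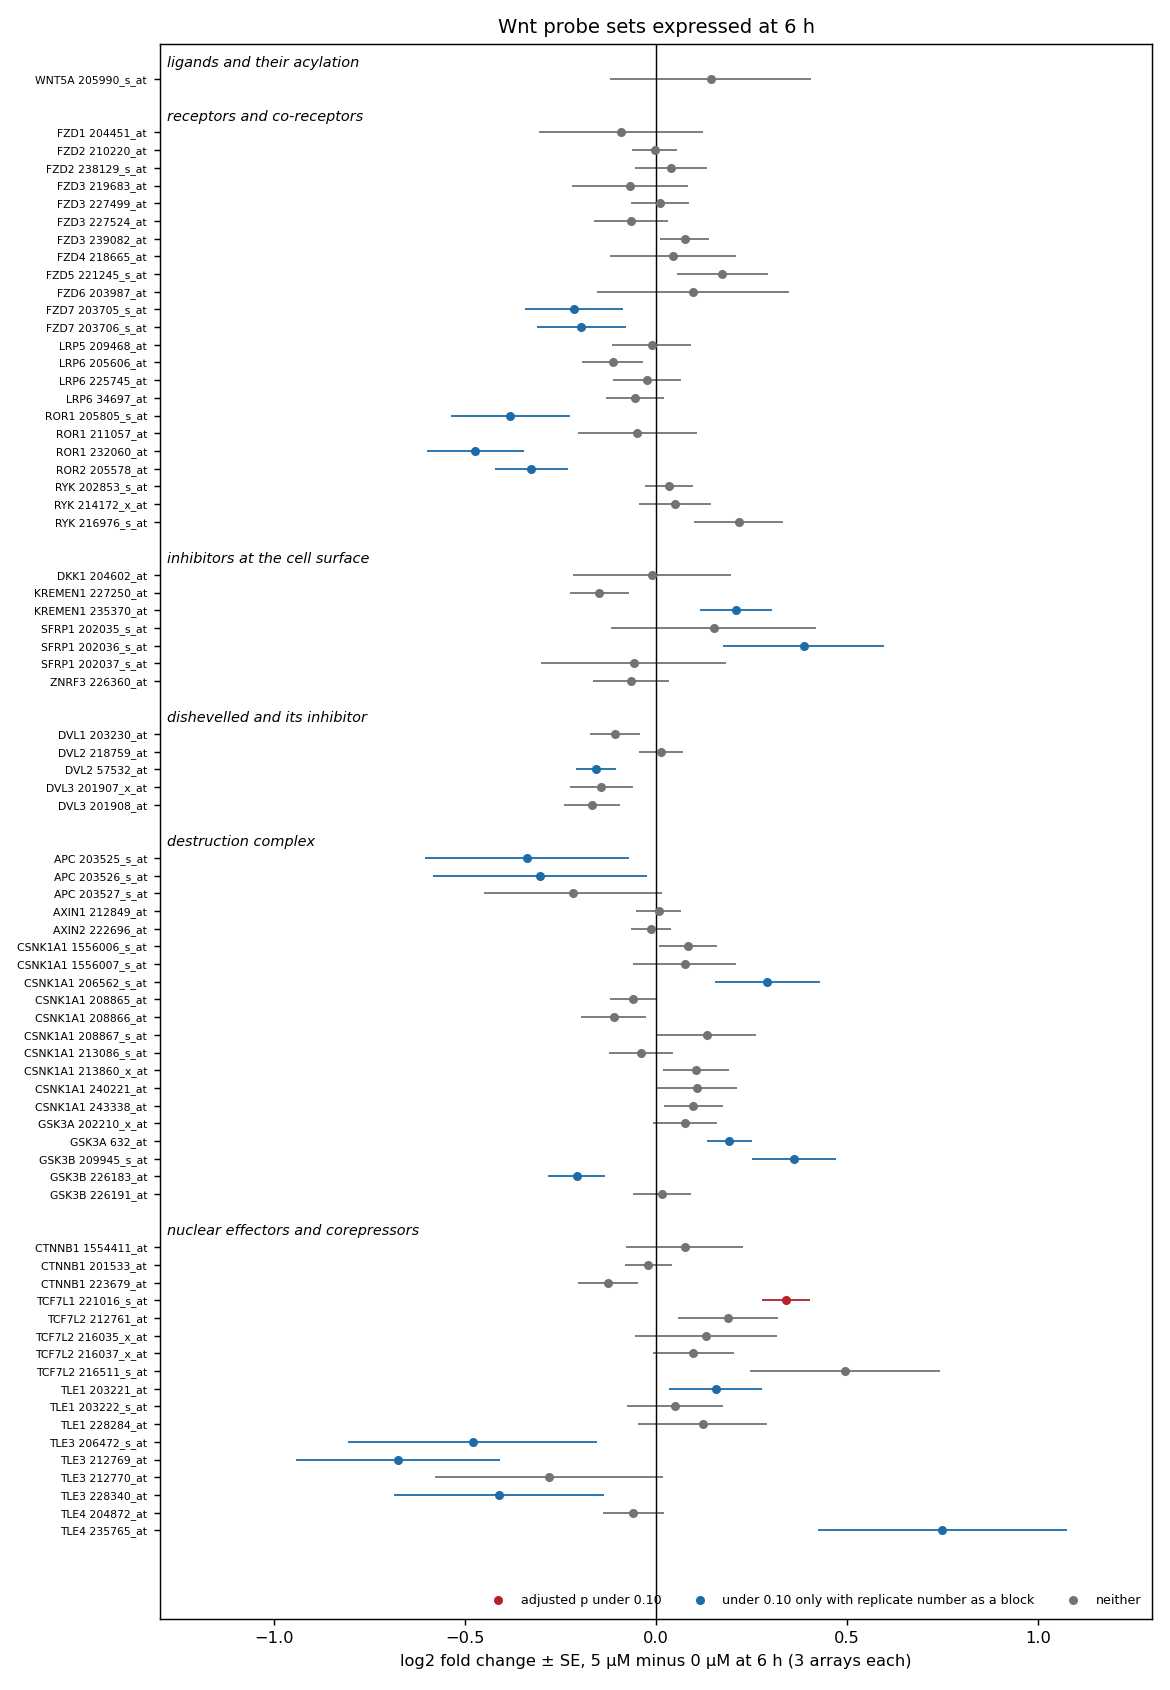
Difference between 5 and 0 μM at 6 h for the 73 expressed Wnt probe sets, grouped by role, as the log2 fold change with its standard error from 3 arrays per dose. TCF7L1 at 0.34 is the probe set that passed without the replicate block, and the 19 others that passed with it lie between -0.68 for TLE3 and 0.75 for TLE4.

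Of the ligands with values, WNT5A, which signals through ROR receptors, was expressed and WNT11 was not. Its signal at 6 h was 5.82, 6.35 and 5.31 on the untreated arrays 1, 2 and 3, 5.96, 5.80 and 5.49 at 1 μM and 6.23, 6.08 and 5.60 at 5 μM. The doses overlapped, and the difference of 5 from 0 μM was 0.14 (SE 0.263, adjusted p = 0.823), and 0.15 without untreated arrays 2 and 3.

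Of the 23 receptor and co-receptor probe sets, none passed at 6 h without the block and 5 were lower with it, from ROR1, ROR2 and FZD7, where 10.9% of all probe sets were lower. ROR1, a receptor tyrosine kinase-like protein that binds WNT5A, had 3 expressed probe sets. Its probe set 232060_at was at 10.05, 9.79 and 9.85 without cocaine, at 9.46, 9.25 and 9.43 at 1 μM and at 9.68, 9.19 and 9.40 at 5 μM. All 6 treated arrays lay below the 3 untreated ones, and the difference of 5 from 0 μM was -0.47 (SE 0.127, limma adjusted p = 0.121, and 0.0187 with the block). It was -0.62 when untreated arrays 2 and 3 were left out (adjusted p = 0.280). Probe set 205805_s_at was at 7.90, 7.52 and 7.67 without cocaine, at 7.61, 7.22 and 7.30 at 1 μM and at 7.58, 7.08 and 7.28 at 5 μM. Each treated array was below the untreated array of its number, although the doses overlapped, and the difference was -0.38 (SE 0.155, adjusted p = 0.259, and 0.0168 with the block), and -0.58 without untreated arrays 2 and 3. The remaining probe set, 211057_at, overlapped between the doses, with 7.33, 7.02 and 7.02 in untreated cells and 7.29, 6.93 and 6.99 at 5 μM, a difference of -0.049, and of -0.26 without those arrays.

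ROR2, the other receptor of that pair, was at 7.51, 7.38 and 7.17 without cocaine, at 7.28, 7.18 and 7.15 at 1 μM and at 7.15, 6.93 and 7.00 at 5 μM. The 5 μM arrays were all below the untreated ones, the 1 μM mean lay between, and the difference of 5 from 0 μM was -0.33 (SE 0.0957, adjusted p = 0.143, and 0.0308 with the block). It was -0.49 without untreated arrays 2 and 3 (adjusted p = 0.231), and with the block as well it was -0.39 (adjusted p = 0.0981). FZD7, a Frizzled receptor of the canonical branch, was at 10.01, 10.31 and 10.29 on the untreated arrays and at 9.83, 10.09 and 10.10 at 5 μM on 203706_s_at. The doses overlapped, with each 5 μM array below the untreated one of its number, and the difference was -0.20 (adjusted p = 0.426, and 0.0374 with the block). That of its other probe set was -0.21 (adjusted p = 0.432, and 0.0424 with the block). These differences were -0.0040 and -0.072 without untreated arrays 2 and 3, and -0.18 and -0.26 with the block as well. Of the other 18 receptor probe sets, from FZD1 to FZD6, LRP5, LRP6, RYK and ROR1, none passed with or without the block. RYK, a receptor with an inactive kinase domain, and the co-receptor LRP6 are among them.

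**Figure D2:**
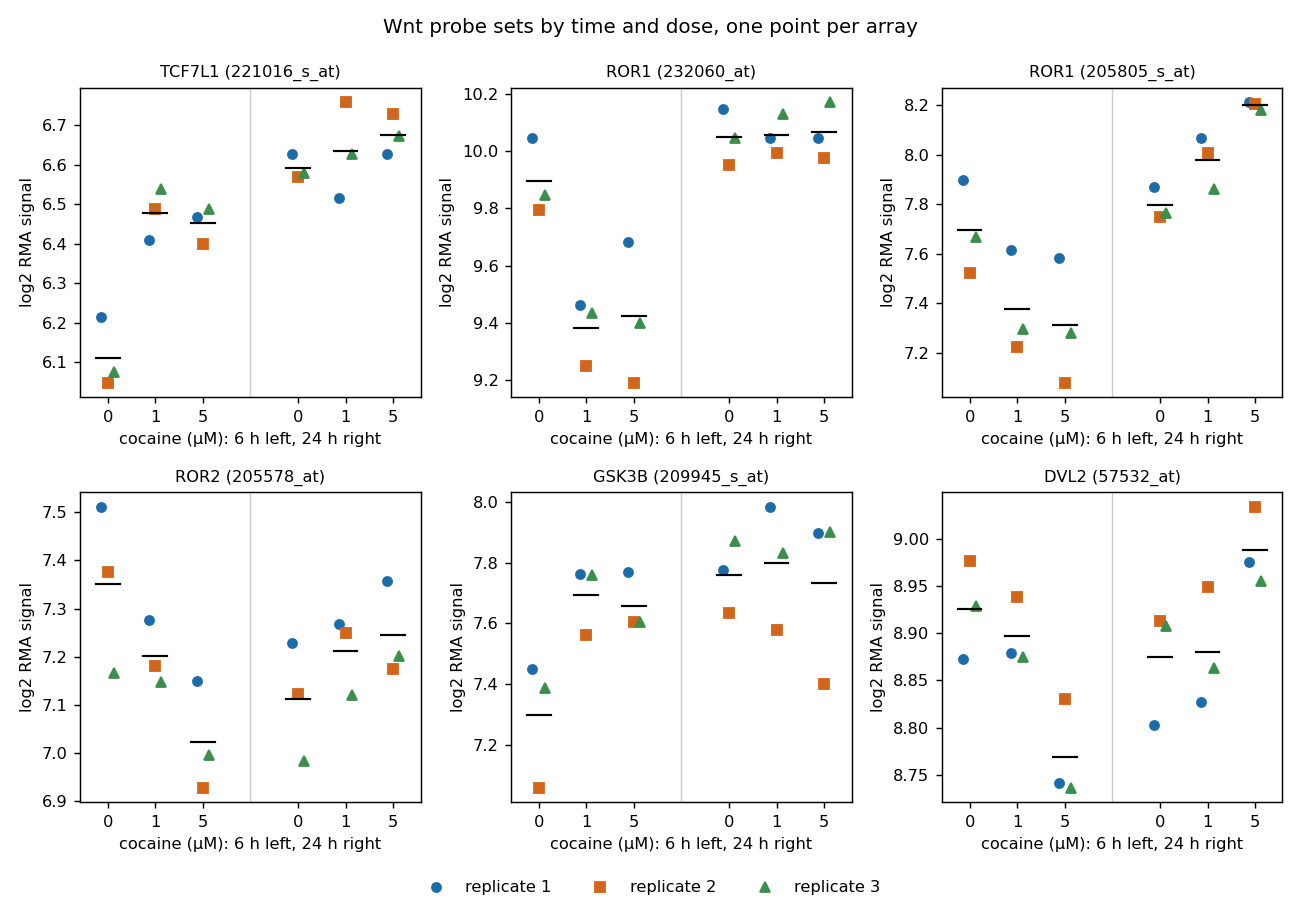
Log2 signal on each of the 18 arrays for 6 Wnt probe sets at 0, 1 and 5 μM, 6 h on the left and 24 h on the right of each panel, with the group mean as a bar and the replicate number as the marker. At 6 h the 3 untreated arrays lie below all treated arrays for TCF7L1 and GSK3B (209945_s_at) and above them for ROR1 (232060_at), while at 24 h the doses of these 3 probe sets overlap.

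Of the 7 probe sets of surface inhibitors, none passed at 6 h without the block and 2 were higher with it, from SFRP1 and KREMEN1, where 7.75% of all probe sets were higher. DKK1, a secreted protein that blocks LRP5 and LRP6 and a feedback target, had 12.27, 12.66 and 12.68 in untreated cells, 12.26, 12.80 and 12.78 at 1 μM and 12.13, 12.72 and 12.74 at 5 μM. Array 1 was the lowest at each dose, and the difference of 5 from 0 μM was -0.010 (SE 0.206, adjusted p = 0.986), which turned to 0.26 without untreated arrays 2 and 3. ZNRF3, a ubiquitin ligase like RNF43, had 8.80, 8.81 and 8.97 in untreated cells and 8.65, 8.86 and 8.87 at 5 μM, which overlap, with a difference of -0.065, and of -0.0083 without those arrays. SFRP1, a secreted decoy that binds Wnt proteins, had 3 expressed probe sets. Its 202036_s_at was at 7.56, 7.96 and 8.16 without cocaine, 7.75, 8.20 and 8.23 at 1 μM and 7.90, 8.39 and 8.54 at 5 μM, a difference of 0.39 between 5 and 0 μM (adjusted p = 0.386, and 0.0173 with the block). Its 202037_s_at was at 10.22, 10.68 and 10.85 without cocaine and 10.11, 10.65 and 10.81 at 5 μM, a difference of -0.059 that turned to 0.30 without those arrays. KREMEN1, a receptor for DKK1, had 5.60, 5.41 and 5.43 in untreated cells, 5.69, 5.36 and 5.60 at 1 μM and 5.71, 5.61 and 5.75 at 5 μM on 235370_at. The 5 μM arrays all lay above the untreated ones, by 0.21 on average (SE 0.0938, adjusted p = 0.300, and 0.0753 with the block), while its probe set 227250_at had an estimate of -0.15. Without untreated arrays 2 and 3 the differences of SFRP1 and KREMEN1 were 0.72 and 0.090, with adjusted p-values of 0.363 and 0.828.

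Of 5 probe sets of Dishevelled genes, the proteins that carry the signal from Frizzled to the destruction complex, none passed without the block and 1 was lower with it, where 10.9% of all probe sets were lower. DVL2, on 57532_at, was at 8.87, 8.98 and 8.93 without cocaine, 8.88, 8.94 and 8.87 at 1 μM and 8.74, 8.83 and 8.74 at 5 μM. The 5 μM arrays were all below the untreated ones, and the difference was -0.16 (SE 0.0535, adjusted p = 0.192, and 0.0580 with the block). It was -0.10 without untreated arrays 2 and 3 (adjusted p = 0.613), and 218759_at of the same gene was at 6.28, 6.21 and 6.32 without cocaine and 6.35, 6.20 and 6.30 at 5 μM, with a difference of 0.014, and of 0.0017 without those arrays. NKD1, below the threshold at 6 h, was at 5.26, 5.16 and 5.07 without cocaine and 5.28, 5.31 and 5.35 at 5 μM on its brightest probe set, and was not tested at that time.

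Of 20 probe sets of the destruction complex, none passed without the block, and with it 3 were higher, from GSK3B, GSK3A and CSNK1A1, and 3 were lower, from APC and GSK3B, beside 7.75% higher and 10.9% lower of all probe sets. GSK3B, the kinase that marks beta-catenin for destruction, had 209945_s_at at 7.45, 7.06 and 7.39 in untreated cells, 7.76, 7.56 and 7.76 at 1 μM and 7.77, 7.60 and 7.60 at 5 μM. All treated arrays lay above the untreated ones, and the difference of 5 from 0 μM was 0.36 (SE 0.11, adjusted p = 0.157, and 0.0302 with the block). Its 226183_at went the other way, from 9.30, 9.16 and 9.32 in untreated cells to 8.94, 9.05 and 9.09 at 1 μM and 9.15, 8.94 and 9.07 at 5 μM, a difference of -0.21 (adjusted p = 0.213, and 0.0913 with the block). The brightest probe set of GSK3B, 226191_at, was at 10.41, 10.15 and 10.23 and at 10.35, 10.28 and 10.20 at the same doses, untreated and 5 μM. The probe sets of GSK3B thus disagreed in direction, and no direction is given for the gene. Without untreated arrays 2 and 3 the differences of 209945_s_at, 226183_at and 226191_at were 0.21, -0.25 and -0.13, of which the last turned from 0.016.

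GSK3A, the related kinase, was at 6.82, 6.75 and 6.91 without cocaine, 7.09, 6.98 and 6.98 at 1 μM and 7.05, 6.98 and 7.03 at 5 μM on 632_at. All treated arrays lay above the untreated ones, with a difference of 0.19 (SE 0.0596, adjusted p = 0.163, and 0.0599 with the block), and of 0.20 without untreated arrays 2 and 3. Its other expressed probe set, 202210_x_at, overlapped between the doses, with 5.89, 5.93 and 6.20 in untreated cells, 6.17, 6.06 and 6.09 at 1 μM and 6.12, 6.06 and 6.06 at 5 μM. That difference was 0.077 (SE 0.084, adjusted p = 0.684, and 0.549 with the block), and 0.19 without those arrays. CSNK1A1, which primes beta-catenin for GSK3, had 1 of its 10 expressed probe sets higher with the block, 206562_s_at, at 9.97, 9.59 and 9.58 in untreated cells, 10.05, 9.90 and 9.68 at 1 μM and 10.20, 9.90 and 9.90 at 5 μM. The groups overlapped, since untreated array 1 lay above 2 of the 5 μM arrays, and the difference of 0.29 (adjusted p = 0.324, and 0.0344 with the block) was 0.038 without untreated arrays 2 and 3. APC, the scaffold of the complex, was at 9.12, 9.68 and 10.03 without cocaine, 8.72, 9.20 and 9.53 at 1 μM and 8.97, 9.33 and 9.52 at 5 μM on 203525_s_at. At each dose array 1 was the lowest and array 3 the highest. The difference of -0.34 (SE 0.268, adjusted p = 0.557, and 0.0354 with the block) turned to 0.15 without untreated arrays 2 and 3. It was -0.22 without those arrays but with the block. AXIN2, the feedback target most often read as a sign of beta-catenin activity, overlapped between the doses on its expressed probe set, with 8.52, 8.62 and 8.51 in untreated cells, 8.48, 8.47 and 8.51 at 1 μM and 8.51, 8.58 and 8.51 at 5 μM. Its difference of 5 from 0 μM was -0.013 (SE 0.0522, adjusted p = 0.924), and 0.020 without untreated arrays 2 and 3.

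Of 17 probe sets of nuclear effectors and corepressors, TCF7L1 rose, and with the block 2 others were higher and 3 lower, from TLE1 and TLE4 and from TLE3, beside 7.75% and 10.9% of all probe sets. TCF7L1, a TCF/LEF protein that acts mostly as a repressor, was at 6.21, 6.05 and 6.08 without cocaine, 6.41, 6.49 and 6.54 at 1 μM and 6.47, 6.40 and 6.49 at 5 μM. All 6 treated arrays lay above the untreated ones, untreated array 1 included. The difference of 5 from 0 μM was 0.34 (SE 0.0637, limma adjusted p = 0.0610, and 0.0275 with the block). It was 0.24 without untreated arrays 2 and 3, where it did not pass (adjusted p = 0.314). CTNNB1 overlapped between 0 and 5 μM on its brightest probe set, with 12.17, 12.00 and 11.99 in untreated cells, 11.88, 11.99 and 11.89 at 1 μM and 12.02, 12.03 and 12.04 at 5 μM, a difference of -0.020 between 5 and 0 μM (SE 0.0625, adjusted p = 0.903), and of -0.14 without untreated arrays 2 and 3. LEF1 was below the threshold at 6 h, with 5.32, 5.28 and 5.13 in untreated cells and 4.94, 5.03 and 5.04 at 5 μM.

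TLE3, a Groucho corepressor that TCF/LEF proteins recruit, had the widest range among the untreated arrays at both times. On 206472_s_at it was at 5.86, 7.16 and 6.95 without cocaine, 5.79, 6.34 and 6.37 at 1 μM and 5.85, 6.33 and 6.34 at 5 μM. The untreated arrays 2 and 3, those with high CYP26A1, were the highest of the 9, and untreated array 1 was close to the array 1 of the other doses. Its difference of -0.48 between 5 and 0 μM (SE 0.326, adjusted p = 0.487, and 0.0839 with the block) turned to 0.32 without them. The other 3 TLE3 probe sets were also highest on untreated arrays 2 and 3, with differences of -0.28 to -0.68, which were 0.49 on 212770_at, 0.22 on 228340_at and -0.014 on 212769_at without those arrays. TLE4, another corepressor of the family, was at 7.15, 6.51 and 6.00 without cocaine, 7.22, 7.12 and 6.21 at 1 μM and 7.50, 7.26 and 7.14 at 5 μM on 235765_at. Untreated array 1 lay above 1 of the 5 μM arrays, and the difference of 0.75 (SE 0.326, adjusted p = 0.286, and 0.0412 with the block) was 0.15 without untreated arrays 2 and 3. Probe set 204872_at of TLE4 was at 10.43, 10.11 and 10.21 without cocaine and 10.23, 10.17 and 10.17 at 5 μM, with a difference of -0.060, and of -0.24 without those arrays. TLE1, a relative of both, was at 10.94, 10.58 and 10.56 without cocaine, 11.05, 10.86 and 10.75 at 1 μM and 10.99, 10.80 and 10.76 at 5 μM on 203221_at, and its difference of 0.16 (adjusted p = 0.550, and 0.0993 with the block) turned to -0.093 without those arrays. TCF7L2, the TCF/LEF protein with 4 expressed probe sets, was at 6.24, 5.43 and 5.04 without cocaine and 6.16, 5.99 and 6.04 at 5 μM on 216511_s_at, and did not pass with or without the block. Its difference of 0.49 turned to -0.17 without those arrays, and the estimates of its other 3 probe sets turned from above to below 0 too. Leaving out untreated arrays 2 and 3 without the block thus moved the estimates of many Wnt genes, among them APC, CSNK1A1, DKK1, FZD7, KREMEN1, SFRP1, TCF7L2, TLE1, TLE3 and TLE4. The untreated array left has replicate number 1, and the part of the number in these moves was not tested. With the block as well, SFRP1 202036_s_at had 0.37, CSNK1A1 206562_s_at 0.22 and APC 203525_s_at -0.22. In that fit FZD7 had -0.18 on 203706_s_at and -0.26 on 203705_s_at, TLE1 203221_at had 0.058 and TLE3 206472_s_at -0.039. Whether genes outside the pathway moved as often was not tested.

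The lower dose was compared with the same untreated arrays, so its values and those of 5 μM share their controls. Between 1 and 0 μM at 6 h, 10 of 73 Wnt probe sets (13.7%) had an unadjusted limma p under 0.05, against 14.3% of all. After adjustment 0 of 73 changed, against 0% of all probe sets. With the block the count was 17, of which 5 were higher, against 5.11% of all probe sets, and 12 were lower, against 7.44%. It was 0 without untreated arrays 2 and 3, against 0% of all, or 7 with the block as well, against 8.6%, and without untreated array 1 it was 6, against 4.28%. TCF7L1 had a difference of 0.37 at 1 μM (SE 0.0637, adjusted p = 0.145, and 0.0418 with the block) beside 0.34 at 5 μM. ROR1 on 232060_at had -0.51 at 1 μM (adjusted p = 0.178, and 0.0376 with the block) beside -0.47 at 5 μM, and GSK3B on 209945_s_at had 0.40 (adjusted p = 0.197, and 0.0419 with the block) beside 0.36. Probe set 1554411_at of CTNNB1 was lower at 1 μM with the block alone, at 8.70, 9.30 and 9.08 against 9.70, 9.40 and 9.46 in untreated cells and 9.46, 9.76 and 9.56 at 5 μM. Its difference of 1 from 0 μM was -0.49 (SE 0.152, adjusted p = 0.235, and 0.0974 with the block). Between 5 and 1 μM at 6 h, 0 of 73 Wnt probe sets changed with or without the block, against 0% of all. The unadjusted p was under 0.05 for 5 (6.85%), against 6.45% of all. The median size of the difference over the 73 probe sets was 0.094 between 5 and 1 μM, 0.13 between 1 and 0 μM and 0.11 between 5 and 0 μM. Over all probe sets it was 0.063, 0.090 and 0.095 in the same order.

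At 24 h no Wnt probe set passed. Of 82 probe sets, 0 passed between 5 and 0 μM by limma, against 0.0123% of all 24307 (3), 0 between 1 and 0 μM, against 0%, and 0 between 5 and 1 μM, against 0.00823% (2). The counts were 0 with the block too. In the same order, the unadjusted p was under 0.05 for 5, 5 and 7 probe sets (6.1%, 6.1% and 8.54%). The shares of all probe sets were 7.2%, 3.37% and 6.12%. TCF7L1 was at 6.63, 6.57 and 6.58 without cocaine, 6.52, 6.76 and 6.63 at 1 μM and 6.63, 6.73 and 6.67 at 5 μM, which overlap, with a difference of 0.084 between 5 and 0 μM (SE 0.0692, adjusted p = 0.855). ROR1 on 205805_s_at was at 7.87, 7.75 and 7.77 without cocaine, 8.07, 8.01 and 7.86 at 1 μM and 8.21, 8.21 and 8.18 at 5 μM. All 5 μM arrays lay above the others, and the difference of 0.40 from untreated cells (SE 0.0666) had an unadjusted p of 0.00021 and an adjusted one of 0.379, or 0.140 with the block. These are also the arrays with the higher 3′ to 5′ difference of ACTB, while that of GAPDH overlapped between 0 and 5 μM. ROR1 on 232060_at was at 10.15, 9.95 and 10.05 without cocaine and 10.05, 9.98 and 10.17 at 5 μM, which overlap. Its 211057_at overlapped too, with 7.66, 7.75 and 7.66 without cocaine and 7.78, 7.68 and 7.60 at 5 μM. ROR2 was at 7.23, 7.12 and 6.98 without cocaine and 7.36, 7.17 and 7.20 at 5 μM.

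None of the feedback targets passed at 24 h. AXIN2 on its brightest probe set was at 8.90, 8.70 and 8.74 without cocaine, 8.70, 8.76 and 8.74 at 1 μM and 8.67, 8.84 and 8.84 at 5 μM. DKK1 was at 12.37, 12.42 and 12.77 without cocaine and 12.36, 12.43 and 12.84 at 5 μM, so that array 3 was the highest at both doses. ZNRF3 was at 8.80, 8.65 and 8.83 without cocaine and 8.89, 8.81 and 9.13 at 5 μM. NKD1 was at 5.68, 5.64 and 5.78 without cocaine, 5.54, 5.47 and 5.51 at 1 μM and 5.74, 5.68 and 5.92 at 5 μM, with the 1 μM arrays below all others. Its difference of 5 from 1 μM was 0.27 (SE 0.0742, adjusted p = 0.628). LEF1 was at 5.62, 6.00 and 6.11 without cocaine, 5.58, 5.61 and 5.67 at 1 μM and 5.40, 5.75 and 5.57 at 5 μM. Its difference of 5 from 0 μM was -0.34 (SE 0.13, adjusted p = 0.642). CTNNB1 was at 12.38, 12.30 and 12.32 without cocaine and 12.36, 12.44 and 12.40 at 5 μM on its brightest probe set.

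A fit of all 18 arrays then tested whether the change from 0 to 5 μM differed between the times. The changes differed for 3 of 73 Wnt probe sets, against 4.21% of all 22358 tested (941), and for 21 with the replicate block, against 15.9% of all. The 3 probe sets were of ROR1 (205805_s_at), ROR2 and DVL2 (57532_at), and in each the estimate was below 0 at 6 h and above 0 at 24 h. For ROR1 it was -0.38 at 6 h and 0.40 at 24 h, a difference of -0.79 (SE 0.177, adjusted p = 0.0361). For ROR2 it was -0.33 and 0.13, a difference of -0.46 (SE 0.129, adjusted p = 0.0838), and for DVL2 -0.16 and 0.11, a difference of -0.27 (SE 0.0729, adjusted p = 0.0731). The 3′ to 5′ difference of ACTB also lay on opposite sides of the untreated arrays at the times, below them at 6 h and above them at 24 h on the 5 μM arrays. That of GAPDH overlapped between the untreated and 5 μM arrays at both times. The part of either measure in these results was not tested. Without untreated arrays 2 and 3 of 6 h, the difference was -0.99 for ROR1 (adjusted p = 0.0654) and -0.62 for ROR2 (adjusted p = 0.0740), and -0.22 for DVL2, which did not pass (adjusted p = 0.339), and 3 Wnt probe sets passed, of FZD3, ROR1 and ROR2, against 1.48% of all. Without untreated array 3 of 24 h, the differences were -0.77 for ROR1 (adjusted p = 0.0707), -0.40 for ROR2, which did not pass (adjusted p = 0.155), and -0.29 for DVL2 (adjusted p = 0.0928). TCF7L1 had 0.34 at 6 h and 0.084 at 24 h, and the difference of 0.26 did not pass (SE 0.0911, adjusted p = 0.178, and 0.0865 with the block).

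**Figure D3:**
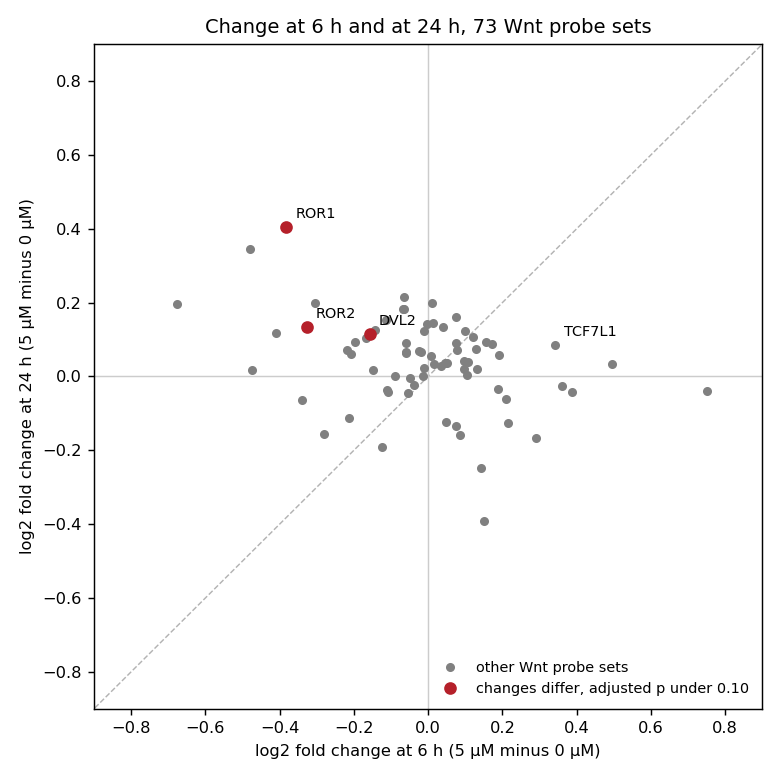
Log2 fold change from 0 to 5 μM at 6 h against that at 24 h for the 73 Wnt probe sets, each from 3 arrays per dose, with the dashed line marking equal changes. The probe sets of ROR1, ROR2 and DVL2 whose changes differed lie below 0 at 6 h and above 0 at 24 h.

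The replicate number marked several Wnt genes more than the dose did. Over the 73 Wnt probe sets at 6 h, the means of the 3 replicate numbers spanned a median of 0.22 and the means of the 3 doses 0.17, and the span between replicate numbers was the larger in 47 (64.4%), against 52.3% of all probe sets. At 24 h it was the larger in 50 of 82 (61.0%), against 64.1% of all. DKK1 at 6 h was at 12.13 to 12.27 on the arrays numbered 1 and at 12.66 to 12.80 on those numbered 2 and 3. FZD1, another Frizzled receptor, was at 8.49 to 8.71 on the arrays numbered 1 at 6 h and at 9.07 to 9.19 on the others. At 24 h the arrays numbered 3 were the high ones, with 9.74 to 9.97 for FZD1 against 9.16 to 9.33, and 11.29 to 11.42 for SFRP1 (202037_s_at) against 10.69 to 10.78. APC on 203525_s_at at 24 h was at 9.24 to 9.37 on the arrays numbered 1, 9.44 to 9.62 on those numbered 2 and 9.96 to 10.12 on those numbered 3. A number thus separated these 4 genes at every dose, and what sets the numbers apart was not tested.

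**Figure D4:**
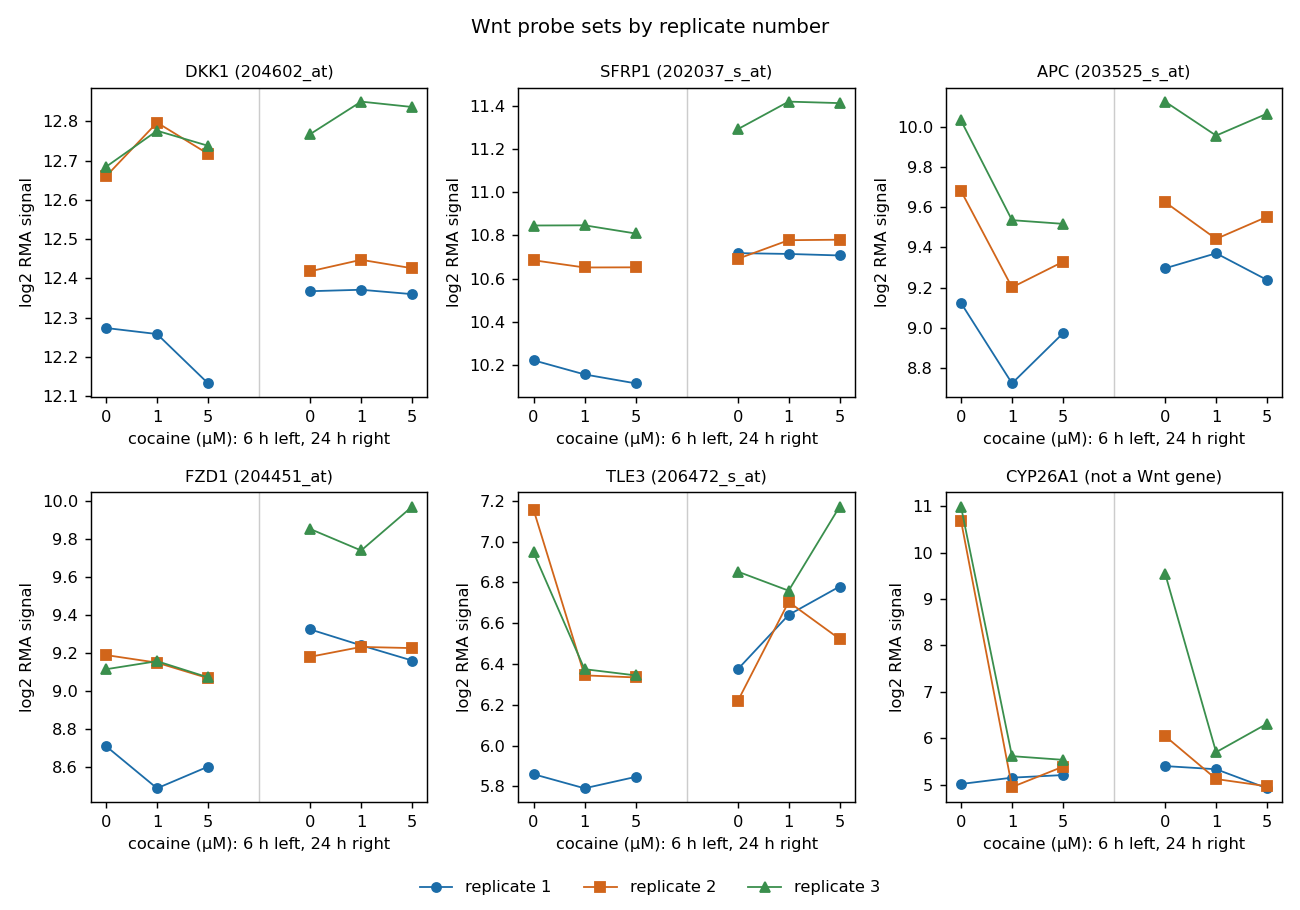
Log2 signal of 5 Wnt probe sets and of CYP26A1 by dose, with a line for each replicate number, 6 h on the left and 24 h on the right of each panel. For DKK1, SFRP1 and FZD1 the arrays numbered 1 are the lowest at 6 h and those numbered 3 the highest at 24 h at every dose, while TLE3 and CYP26A1 at 6 h are high on untreated arrays 2 and 3.

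A further list of 96 other Wnt genes, of which 92 were named on the array, gives the rest of the pathway. Of these, 58 genes with 120 probe sets were expressed at 6 h and 62 at 24 h. Between 5 and 0 μM at 6 h, 2 of the 120 probe sets rose and 2 fell, beside 2.98% of all probe sets in either direction, and with the block 17 were higher, beside 7.75% of all, and 13 lower, beside 10.9%. The probe sets that rose were of JUN, a transcription factor and Wnt target, by 0.50 (SE 0.0779, adjusted p = 0.0432), and of HIPK2, a kinase that acts on nuclear cofactors, by 0.46 (SE 0.107, adjusted p = 0.0927). Those that fell were of DKK2, a relative of DKK1, with a difference of -0.47 (SE 0.0952, adjusted p = 0.0705), and of CELSR3, a cadherin of the planar polarity branch, with -0.31 (SE 0.0731, adjusted p = 0.0974). None of these passed without untreated arrays 2 and 3, where 0 of all 22455 probe sets did. In the other 5 comparisons of doses, 0 probe sets of this list passed without the block. With it, 7 were higher between 1 and 0 μM at 6 h, beside 5.11% of all, and 13 lower, beside 7.44%. None passed with it in the remaining comparisons of doses. The changes at 6 h and 24 h differed for 6 of the 120, 3 in each direction, beside 4.21% of all probe sets.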

How the data were processed

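SH-SY5Y cells were profiled on 18 Affymetrix U133 Plus 2.0 arrays, 3 for each dose and time, and the pools of 3 dishes behind the arrays were taken as replicates. The deposited values are log2 signals that the authors made with RMA, which corrects background, normalizes and summarizes by median polish, in the affy library, separately for the arrays of 6 and of 24 h. The labels' processing notes name RMA and limma without versions. The dose was taken from the sample titles, because other labels of the 5 μM arrays also call them non-treated.

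Probe sets were named through the platform annotation, with symbols updated through RefSeq (GRCh38.p14), which held 41037 of the 41091 probe sets with 1 symbol. Of the 54675 probe sets, 1801 had several symbols and were tested but not named, 11721 were unnamed here, and 62 control probe sets were left out. Probe sets were kept with at least 1 symbol and a mean above log2(40) over the arrays of a time, which left 22455 at 6 h, 24307 at 24 h and 22358 at both. The threshold is the one in the study's methods, which do not say how it was applied across arrays, and the numbers kept here differ from the study's. Doses were compared pairwise within a time with limma 3.58.1 in R 4.3.3 (lmFit and eBayes on 9 arrays), with Benjamini-Hochberg adjustment over all probe sets kept. The threshold was an adjusted p under 0.10. The changes at 6 and 24 h were compared in a fit of 18 arrays. Tables were read with the data.table package (version 1.17.8), and matplotlib 3.10.9 in Python 3.11.15 drew the plots. The fits were run on simulated data with independent noise on each array. Those data held no likeness by replicate number and no untreated arrays that stood apart. The number of arrays limits the precision.

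Replicate numbers pair the arrays. Each array's deviation from its group mean was correlated with that of every array of another dose. For 9 pairs that shared a number, r was 0.377 to 0.768 (6 h), and for the 9 pairs of 24 h it was 0.424 to 0.733. For 18 pairs with unlike numbers, the ranges were -0.632 to 0.0711 (6 h) and -0.575 to 0.165 (24 h). The fit with the number as a block was an alternative, beside other filters, thresholds, normalizations, 1 probe set per gene and leaving out arrays.

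The members and lists were chosen with earlier results of these data known. Values per array are given for up to 8 genes in each direction with the smallest p among probe sets past the threshold with or without the block between 5 and 0 μM at 6 h, for expressed feedback targets, for CTNNB1, TCF7L1, TLE4 and GSK3B, of which the last 3 are in the study's own list of changed genes, and for the gene with the widest range among untreated arrays. WNT5A, FZD1 and TCF7L2 were added after their values were seen.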

Additional observations from a re-analysis of the deposited data

Results flagged for a closer look

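The change from 0 to 5 μM cocaine at 6 h differed from that at 24 h, in a limma contrast over all 18 arrays, for 3 Wnt probe sets. The difference was -0.79 on the log2 scale for ROR1 (205805_s_at), -0.46 for ROR2 (205578_at) and -0.27 for DVL2 (57532_at), with adjusted p-values of 0.0361, 0.0838 and 0.0731. ROR1 kept its call in all 23 alternatives, with adjusted p-values of 0.000348 to 0.0857. ROR2 kept it in 10 of 23 and DVL2 in 12 of 23, and no difference changed its sign. In the alternatives that changed only the block, the filter, the threshold or the 1 μM arrays, the sign could not change. When 1 array was left out, ROR2 lost the call without untreated arrays 1 or 2, 1 μM array 2, or 5 μM arrays 2 or 3 of 6 h, and without untreated arrays 2 or 3, 1 μM arrays 1 or 2, or 5 μM arrays 1 or 3 of 24 h, with differences of -0.38 to -0.48. DVL2 lost it without untreated arrays 2 or 3 or 5 μM arrays 1 or 3 of 6 h, and without untreated arrays 1 or 2 or 5 μM arrays 1 or 2 of 24 h, with differences of -0.24 to -0.29. The other expressed probe sets of these genes did not pass, and the difference of ROR1 on 232060_at was -0.49 (SE 0.153, adjusted p = 0.119, and 0.00783 with the replicate block).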

How the results depend on the processing

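Between 5 and 0 μM at 6 h, the count of Wnt probe sets that passed was 1. It was 20 with the replicate block, against 4184 of all 22455 probe sets. Without the filter on signal it was 2, TCF7L1 and a TLE4 probe set below the threshold at 6 h, against 680 of all 42892. With means above log2(100) it was 0, against 482 of all 16523, but TCF7L1, with a mean of 6.35, was then not tested. With the 6 arrays of the compared doses it was 0, against 131 of all 22455, and it was 0 at an adjusted p under 0.05. It was 0 to 9 when 1 array was left out, in fits where 0 to 2432 of all 22455 probe sets passed. Between 1 and 0 μM at 6 h, the count was 0, but 17 with the block, 7 with the block and without untreated arrays 2 and 3, and 0 to 6 when 1 array was left out. The count of probe sets whose change differed between the times was 3, against 941 of all 22358, but 21 with the block, against 3555. It was 1 without the filter, against 603 of all 42892, and 1 at an adjusted p under 0.05. When 1 array was left out it was 1 to 8, in fits where 475 to 1357 of all 22358 passed. Leaving out untreated arrays 2 and 3 of 6 h with the block, or in the fit of both times, was chosen after seeing the data. For the other 4 comparisons of doses the count was 0 in each of 18 alternatives. The cause of these shifts was not tested. TCF7L1 rose in all 19 alternatives, by 0.21 to 0.39, and passed in 9 of them. Several of the alternatives changed only the block, the probe sets tested, the spread, the threshold or the 1 μM arrays. The estimate of 5 minus 0 μM cannot move in those, so its direction there is no support. Without untreated arrays 2 and 3 and without the block, the direction turned in 29 of 73 Wnt probe sets. Among those that passed with or without the block it reversed for TLE1 203221_at (-0.093), APC 203525_s_at (0.15) and 203526_s_at (0.21), and TLE3 206472_s_at (0.32) and 228340_at (0.22). Here 1 untreated array is left, of replicate number 1, and is assumed to vary like the other groups. With the block as well, TLE1 203221_at had 0.058, APC 203525_s_at -0.22, APC 203526_s_at -0.17 and TLE3 206472_s_at -0.039. These have the directions found with all arrays. Under other thresholds 27 to 31 Wnt genes were expressed at 6 h, and 27 to 34 at 24 h. The replicate block changed calls in the comparisons of 5 and 1 μM with 0 μM at 6 h and between the times, and in no other. The deposited values hold no detection call, so how far a dim probe set stood above background is not known.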
